A study of Oryza sativa with 6 samples.

Results

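Aspartate and alanine aminotransferases are the enzymes that pass amino groups between glutamate, aspartate and alanine. They were chosen by annotation: a gene was taken when its best protein hits, in the NR or the Swiss-Prot column of the deposited table, named an aspartate aminotransferase or an alanine aminotransferase, and alanine-glyoxylate aminotransferases were left out. This gave 12 of the 61955 genes in the table. Of these, 4 are annotated as aspartate aminotransferases proper and 4 as alanine aminotransferases. Another 2 were grouped as bifunctional aspartate and prephenate aminotransferases, OsZS_01G0624300 by its name and OsZS_06G0465300 by a shared KEGG orthology number. The last 2 (an aromatic aminotransferase ISS1 and an ALD1 homolog) matched only through a further NR entry.

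The genes were measured by RNA-seq in embryos of NIL-D and NIL-X, a pair of near-isogenic lines of indica rice, at about 15 days after flowering, with 3 samples per line. NIL-D carries the giant embryo allele of the cultivar Dapeimi, a base deletion in the first exon of GE, a cytochrome P450 gene, and its genotype is labelled CMP-/-. NIL-X carries the corresponding segment of the normal-embryo parent of the cross and is labelled wild type. Both lines came from the same cross by repeated selfing and grew in the same field, and each sample was collected from a group of plants.

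Aminotransferases move an amino group from an amino acid to a keto acid with pyridoxal phosphate as cofactor, and the reactions run in both directions. Aspartate aminotransferase links glutamate and oxaloacetate to aspartate and 2-oxoglutarate, and its cytosolic, mitochondrial and plastid forms take part in moving carbon and reducing power between compartments as malate and aspartate. Alanine aminotransferase links pyruvate and glutamate to alanine and 2-oxoglutarate, and in cereal seeds and roots it is known for alanine made under low oxygen and for its place in nitrogen use.

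The values are TPM, a measure of transcript abundance that is corrected for gene length and scaled to a common total in each sample, so that levels of different genes can be compared on this scale. The number of reads behind a value is unknown. Between 26270 and 27709 genes were above 0 in a sample. NIL-D replicate 3 stood apart from the other samples of its line: its correlation with NIL-D replicates 1 and 2, over the tested genes on the log2 scale, was 0.921 and 0.933, against 0.975 between those 2 and 0.961 to 0.970 within NIL-X. It was the lowest of the NIL-D samples for 53.4% of all tested genes and the highest for 30.7%. The methods name a GE transcript, OsZS_07T0416900, and the gene of the same number, OsZS_07G0416900, is annotated as a sulfotransferase and had 0.04 to 0.68 TPM in the 6 samples. A gene of a nearby number, OsZS_07G0414800, is annotated as a cytochrome P450 78A5 and had 0.99 to 5.26 TPM in NIL-D and 3.30 to 3.73 TPM in NIL-X, with overlap. Neither gave a check of the labels. As markers of the embryo, 5 oleosin genes (proteins that coat oil bodies) summed to 33996 to 37369 TPM in NIL-D and to 33720 to 36596 TPM in NIL-X. Scutellum (a part of the embryo) and aleurone cannot be set apart by the markers used here. Of 35 marker genes of the endosperm (glutelins, prolamins, 19 kDa globulin and granule-bound starch synthase), 4 to 6 were at 0 in a sample and the others were detected. Among the defining ones, granule-bound starch synthase OsZS_06G0028800 had 201 to 432 TPM and 19 kDa globulin 467 to 1295 TPM over the 6 samples. A further gene of that synthase, OsZS_06G0028900, was at 0 in all. The endosperm markers summed to 42528 to 42874 TPM in NIL-D and 42203 to 54356 TPM in NIL-X. Most of this came from OsZS_08G0025200, named glutelin-like in NR and cocosin in Swiss-Prot. Without it the sums were 5044 to 11022 TPM in NIL-D and 8505 to 19718 TPM in NIL-X. The part of endosperm RNA in the differences below was not tested.

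For the 21500 genes with a mean of at least 0.5 TPM, NIL-D was compared with NIL-X by limma on log2(TPM + 1). A gene was called when its Benjamini-Hochberg adjusted p was below 0.05 and its log2 fold change, NIL-D minus NIL-X, was at least 1 in size. Fold changes on this scale understate the change of genes near 0. Of the endosperm markers 30 were tested and none was called. Their median log2 fold change was -0.67, with 8 above 0 and 10 at an unadjusted limma p below 0.05. Over all tested genes the median was -0.15, 30.1% were above 0 and 15.6% had such a p. The question was whether the aminotransferase transcripts differ between embryos of NIL-D and NIL-X. Each allele is carried by a single line here, so the allele and other differences between the lines cannot be told apart. Since RNA came from whole embryos, fewer cells of a type and less RNA per cell cannot be told apart.

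Of the 12 genes, 10 reached the minimum of 0.5 TPM and none of the 10 was called with all 6 samples, beside 0.642% of all tested genes (0.265% higher and 0.377% lower in NIL-D). The cytoplasmic and both mitochondrial aspartate aminotransferases had the largest positive differences, with mean levels in NIL-D 1.64 to 2.05 times those in NIL-X. These 3 genes kept their sign in all 13 alternatives tried. The alternatives for the TPM filter, the limma trend and the replicate block leave a log2 fold change as it is. They could not have turned a sign, for these or the other genes. The log2 fold changes of the alanine aminotransferases ran from -0.68 to 0.055. Those of OsZS_09G0247200 and OsZS_10G0241200 stayed below 0 in all 13 alternatives (-1.06 to -0.34 and -0.66 to -0.45). Those of OsZS_10G0241100 and OsZS_07G0426000 turned sign with the processing or the samples used. An unadjusted limma p below 0.05 was reached by 3 of the 10 genes, OsZS_01G0529800, OsZS_06G0303600 and OsZS_10G0241200, against 15.6% of all tested genes.

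The cytoplasmic aspartate aminotransferase OsZS_01G0529800 (2303 bp, chromosome 1 by its name) makes or uses aspartate in the cytosol and was the most abundant of the 12 genes in every sample. In replicates 1 to 3 of NIL-D its level was 1119, 1182 and 889.0 TPM, and in those of NIL-X it was 571.9, 644.8 and 724.6 TPM. Values of the other genes are given in the same order. All 3 NIL-D values lay above all 3 NIL-X values, as they did for 4.53% of all tested genes, and the lowest NIL-D value was that of replicate 3. The means were 1063 ± 154 and 647.1 ± 76.4 TPM (SD, n = 3), 1.64-fold apart. The log2 fold change was 0.71 (SE 0.19, 95% interval 0.27 to 1.16) and was not called (limma adjusted p = 0.182).

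The mitochondrial aspartate aminotransferase of higher level, OsZS_02G0132300 (2531 bp, chromosome 2 by its name), belongs to the form that exchanges aspartate and oxaloacetate within mitochondria. It had 235.1, 200.02 and 96.4 TPM in NIL-D and 100, 106.9 and 113.9 TPM in NIL-X. NIL-D replicates 1 and 2 were above every NIL-X sample and NIL-D replicate 3 was below every one, so the lines overlapped. The means were 177.2 ± 72.1 and 106.9 ± 6.96 TPM (SD, n = 3), and the log2 fold change was 0.63 (SE 0.32, 95% interval -0.15 to 1.40, limma adjusted p = 0.394).

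The other mitochondrial gene, OsZS_06G0303600 (2193 bp, chromosome 6 by its name), carries the same annotation and lies on the study's list of differing genes, which was drawn from these samples and is no independent evidence of its direction. It had 42.5, 39.4 and 18.7 TPM in NIL-D and 15.0, 14.2 and 19.8 TPM in NIL-X. NIL-D replicates 1 and 2 were again the highest of the 6 samples, while NIL-D replicate 3 lay within the NIL-X range. The means were 33.5 ± 12.96 and 16.3 ± 3.05 TPM (SD, n = 3), 2.05-fold apart, which was the largest fold of the 10 genes. The log2 fold change was 0.92 (SE 0.32, 95% interval 0.16 to 1.69) and was not called (limma adjusted p = 0.264).

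The plastid form, OsZS_02G0588100 (1666 bp, chromosome 2 by its name), supplies aspartate inside the plastid, where the amino acids of the aspartate family are made. It had 264.5, 225.9 and 101.7 TPM in NIL-D and 162.1, 175.3 and 205.9 TPM in NIL-X. NIL-D replicates 1 and 2 were the highest of all samples and replicate 3 the lowest, as for the first mitochondrial gene. With means of 197.4 ± 85.0 and 181.1 ± 22.5 TPM (SD, n = 3), the log2 fold change was 0.019 (SE 0.35, 95% interval -0.83 to 0.86, limma adjusted p = 0.985), an interval that leaves room for a difference of either sign. Quantile normalization (-0.003) and leaving out single samples (-0.25 to 0.44) turned its sign.

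**Figure D1:**
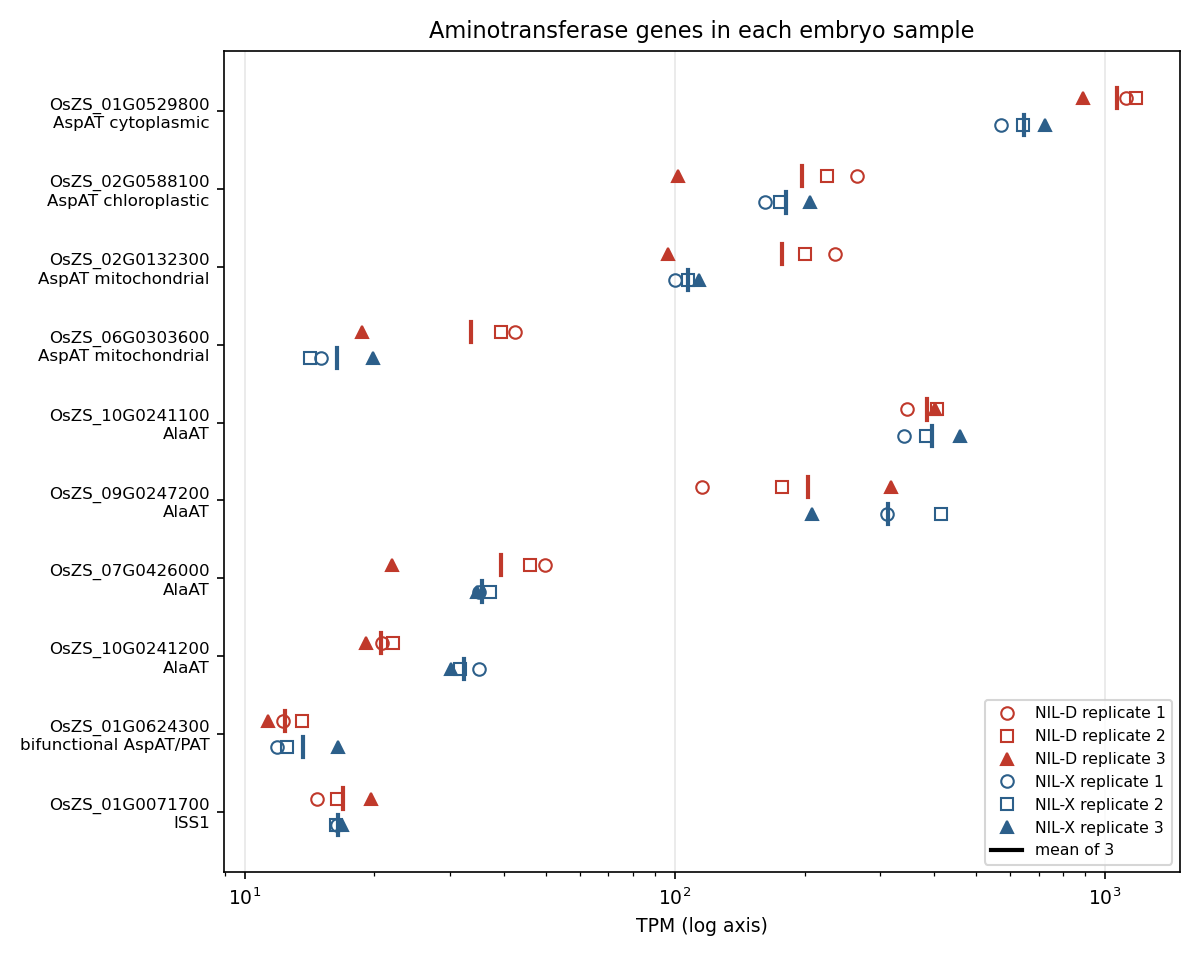
TPM (log axis) of the 10 tested aminotransferase genes in each of the 3 NIL-D (red) and 3 NIL-X (blue) samples, with the mean of each line as a bar; AspAT and AlaAT stand for aspartate and alanine aminotransferase and PAT for prephenate aminotransferase. For 4 genes (OsZS_02G0588100, OsZS_02G0132300, OsZS_06G0303600 and OsZS_07G0426000) the filled red triangle, NIL-D replicate 3, lies far to the left of the open red symbols, at 41.5% to 45.9% of their mean.

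The 4 aspartate aminotransferases together held 1661, 1647 and 1106 TPM in NIL-D and 849.0, 941.2 and 1064 TPM in NIL-X. The lowest NIL-D sum, that of replicate 3, exceeded the highest NIL-X sum, that of replicate 3, by a small margin. The cytoplasmic gene gave 67.4%, 71.8% and 80.4% of the sum in NIL-D and 67.4% to 68.5% in NIL-X. The plastid gene gave 15.9%, 13.7% and 9.20% in NIL-D and 18.6% to 19.4% in NIL-X, so its share was smaller in each NIL-D sample than in each NIL-X sample, although its TPM overlapped between the lines. Both mitochondrial genes together gave 16.7%, 14.5% and 10.4% in NIL-D and 12.6% to 13.6% in NIL-X. The less abundant of them stood at 18.1%, 19.7% and 19.4% of the other in NIL-D and at 15.0%, 13.2% and 17.4% in NIL-X. This proportion was thus much the same in NIL-D replicate 3 as in replicates 1 and 2, while the levels there were 45.6% and 44.3% of the mean of replicates 1 and 2.

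The bifunctional aspartate and prephenate aminotransferase OsZS_01G0624300 (2072 bp, chromosome 1 by its name) also makes arogenate, the precursor of phenylalanine and tyrosine, in plastids. It had 12.2, 13.6 and 11.3 TPM in NIL-D and 11.9, 12.5 and 16.5 TPM in NIL-X. The lines overlapped, and the highest sample was NIL-X replicate 3. Its log2 fold change was -0.12 (SE 0.17, 95% interval -0.52 to 0.28, limma adjusted p = 0.750), and it was above 0 after median-ratio rescaling (0.039) and quantile normalization (0.043). The gene grouped with it, OsZS_06G0465300, shares its KEGG orthology number but is named only aspartate aminotransferase in Swiss-Prot. That gene is a model of only 336 bp and was listed at 0 in all 6 samples.

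Among the alanine aminotransferases, OsZS_10G0241100 (2337 bp, chromosome 10 by its name) was the most abundant in NIL-D and, by its mean, in NIL-X. It had 347.0, 406.6 and 401.1 TPM in NIL-D and 341.3, 382.4 and 461.0 TPM in NIL-X. The lines overlapped throughout and NIL-D replicate 3 lay between the other NIL-D samples. The log2 fold change was -0.029 (SE 0.16, 95% interval -0.42 to 0.36, limma adjusted p = 0.945), an interval within which the sign is not set. It was 0.14 after median-ratio rescaling.

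The gene of the next number, OsZS_10G0241200 (1464 bp), carries the same annotation and had 20.8, 22.1 and 19.1 TPM in NIL-D and 35.0, 31.6 and 30.1 TPM in NIL-X. All 3 NIL-D values lay below all 3 NIL-X values, as they did for 19.7% of all tested genes. The means were 20.7 ± 1.48 and 32.2 ± 2.49 TPM (SD, n = 3), and the log2 fold change was -0.62 (SE 0.12, 95% interval -0.91 to -0.32). It was not called (limma adjusted p = 0.110). As a percentage of its neighbour OsZS_10G0241100 it stood at 6.0, 5.43 and 4.76 in NIL-D and 10.2, 8.27 and 6.53 in NIL-X, again without overlap. How the authors' estimate divided reads between these similar genes, or between the mitochondrial pair, was not examined, and both pairs are uncertain in this respect.

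OsZS_09G0247200 (1918 bp, chromosome 9 by its name) was the alanine aminotransferase that varied most between samples of the same line. It had 115.7, 176.9 and 318.4 TPM in NIL-D and 311.8, 415.9 and 208.6 TPM in NIL-X. NIL-D replicate 3 was the highest sample of its line, at 218% of the mean of the other 2, and NIL-X replicate 3 the lowest of its line, and the lines overlapped. The means were 203.7 ± 104 and 312.1 ± 104 TPM (SD, n = 3), and the log2 fold change was -0.68 (SE 0.41, 95% interval -1.66 to 0.30, limma adjusted p = 0.454).

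OsZS_07G0426000 (2424 bp, chromosome 7 by its name) had 49.8, 46.0 and 22.0 TPM in NIL-D and 35.1, 37.1 and 34.7 TPM in NIL-X. NIL-D replicates 1 and 2 were above and replicate 3 below all NIL-X samples, the order also seen in the plastid and the first mitochondrial aspartate aminotransferase. Its log2 fold change was 0.055 (SE 0.30, 95% interval -0.66 to 0.77, limma adjusted p = 0.944), and leaving out single samples gave -0.15 to 0.42.

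The 4 alanine aminotransferases summed to 533.4, 651.6 and 760.6 TPM in NIL-D and to 723.1, 867.0 and 734.3 TPM in NIL-X. NIL-D replicates 1 and 2 were below every NIL-X sample and replicate 3 lay among them. The aspartate aminotransferases held 3.12, 2.53 and 1.45 times the summed TPM of the alanine aminotransferases in NIL-D and 1.17, 1.08 and 1.45 times in NIL-X. NIL-D replicate 3 and NIL-X replicate 3 were nearly level in this ratio, at 1.454 and 1.449, and the other 2 samples of each line were well apart.

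**Figure D2:**
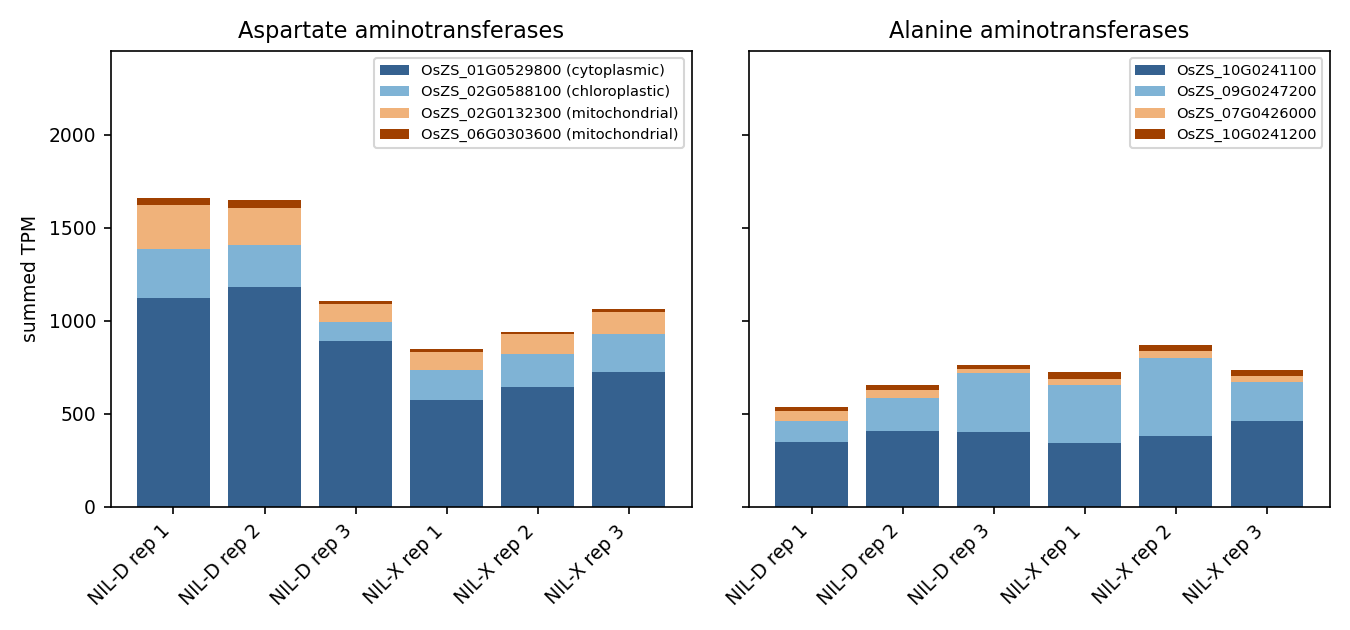
Summed TPM of the 4 aspartate aminotransferases (left) and the 4 alanine aminotransferases (right) in each sample, with each gene as a part of the bar and both axes starting at 0. The aspartate aminotransferase bars of NIL-D replicates 1 and 2 reach 1661 and 1647 TPM and stand above the other 4, while the alanine aminotransferase bars of the lines overlap.

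The aromatic aminotransferase ISS1, OsZS_01G0071700 (2341 bp, chromosome 1 by its name), whose Arabidopsis namesake acts on aromatic amino acids and methionine, had 14.7, 16.4 and 19.6 TPM in NIL-D and 16.4, 16.2 and 16.8 TPM in NIL-X. The NIL-X samples were close together and lay inside the NIL-D range. The log2 fold change was 0.026 (SE 0.14, 95% interval -0.32 to 0.37, limma adjusted p = 0.945), and it was -0.082 without NIL-D replicate 3. The ALD1 homolog OsZS_03G0083500 (2361 bp), named for an Arabidopsis aminotransferase of defence signalling, was below the minimum for testing, with 0.00, 0.31 and 0.12 TPM in NIL-D and 0.05, 0.06 and 0.08 TPM in NIL-X. It was the only one of the 2 untested genes to be above 0 in every sample of a line, NIL-X.

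Ordered by mean level, the cytoplasmic aspartate aminotransferase came first in both lines, without overlap with the next gene. The second place was held by OsZS_10G0241100 in both lines, which in NIL-D did not overlap with the next gene and in NIL-X overlapped with OsZS_09G0247200. OsZS_09G0247200, OsZS_02G0588100 and OsZS_02G0132300 followed in this order in both lines. These 3 neighbours overlapped in NIL-D and did not overlap in NIL-X. The remaining genes were at means of 12.4 to 39.3 TPM in NIL-D and 13.6 to 35.6 TPM in NIL-X. The main exchange of places was that of OsZS_06G0303600, the seventh in NIL-D and the ninth in NIL-X. It overlapped with its neighbours in both lines, OsZS_07G0426000 and OsZS_10G0241200 in NIL-D and ISS1 and the bifunctional enzyme in NIL-X.

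Taken over the 10 tested genes, 6 log2 fold changes were above 0 and 4 below, with a median of 0.022, beside 30.1% above 0 and a median of -0.15 for all tested genes. All 4 aspartate aminotransferases proper were among the 6, but the plastid gene OsZS_02G0588100 was below 0 after quantile normalization (-0.003) and without any one of NIL-D replicates 1 and 2 and NIL-X replicates 1 and 2 (-0.25 to -0.001). Median-ratio rescaling moved the median of all genes by 0.15 to -0.005 and quantile normalization by 0.14 to -0.008, and 8 and 6 of the 10 genes were then above 0. Relative to the median of all genes, the cytoplasmic gene stood at 0.86, the mitochondrial genes OsZS_06G0303600 and OsZS_02G0132300 at 1.07 and 0.78, OsZS_10G0241200 at -0.47 and OsZS_09G0247200 at -0.53. Values of the lines did not overlap for 2 of the 10 genes, beside 24.3% of all tested genes.

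The size of the differences depended on NIL-D replicate 3. This sample was the lowest NIL-D sample for 7 of the 10 genes and the highest for 2, beside 53.4% and 30.7% of all tested genes. For 4 genes it held under 60% of the mean of replicates 1 and 2. The coefficient of variation was larger in NIL-D than in NIL-X for 7 genes, and reached 40.7% in NIL-D against 6.51% in NIL-X for OsZS_02G0132300. For the under 60% count and the coefficient of variation, the share over all genes was not computed. Without this sample, 2 of the 10 genes were called, both higher in NIL-D, beside 2.84% of all tested genes (1.11% higher and 1.73% lower). These were the mitochondrial genes OsZS_02G0132300, at 1.02 (SE 0.11, limma adjusted p = 0.0153), and OsZS_06G0303600, at 1.29 (SE 0.16, limma adjusted p = 0.0202). In the other alternatives tried the adjusted p of these genes was at least 0.297 and 0.181, and over all 13 it reached 0.715 and 0.604. Without NIL-D replicate 1, OsZS_02G0132300 stood at 0.38 and OsZS_06G0303600 at 0.72.

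Also without NIL-D replicate 3, the cytoplasmic gene OsZS_01G0529800 stood at 0.84 (limma adjusted p = 0.0341, range over its 13 alternatives 0.0341 to 0.539) and OsZS_10G0241200 at -0.56 (limma adjusted p = 0.0464, range 0.0464 to 0.405), both short of the fold change limit. OsZS_09G0247200 stood at -1.06 (limma adjusted p = 0.112, which is the lowest of its alternatives, the highest being 0.742). It stood at -0.34 without NIL-D replicate 1 and at -0.45 without NIL-X replicate 2. The plastid gene OsZS_02G0588100 stood at 0.44 and OsZS_07G0426000 at 0.42, neither of them past the adjusted p limit. NIL-D replicate 3 also had the lowest sum of endosperm markers without OsZS_08G0025200, at 5044 TPM against 7592 and 11022 TPM in the other NIL-D samples, and the part of this in the result was not tested.

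**Figure D3:**
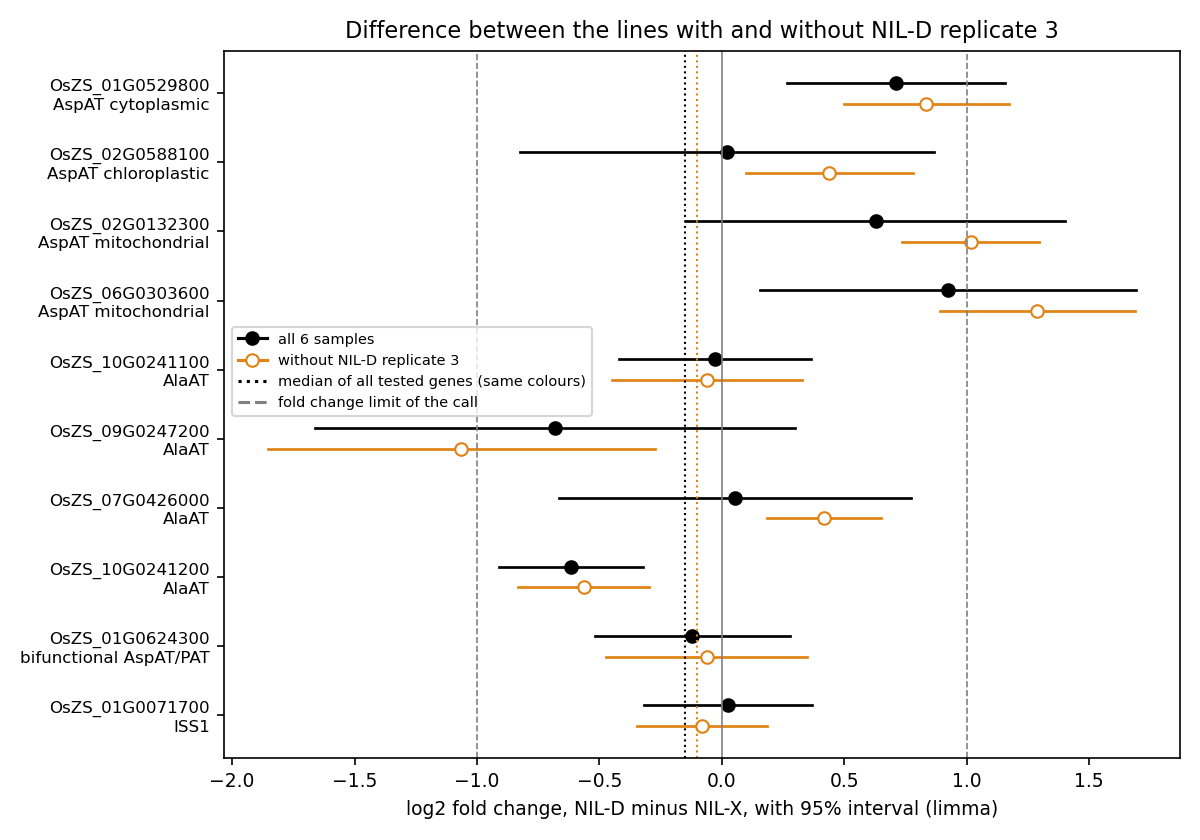
Log2 fold change, NIL-D minus NIL-X, of the 10 tested genes with the 95% interval from limma, for all 6 samples (black) and without NIL-D replicate 3 (orange), with dotted lines at the median of all tested genes and dashed lines at the fold change limit. Leaving out that sample moves both mitochondrial aspartate aminotransferases past the limit, to 1.02 and 1.29, and the alanine aminotransferase OsZS_09G0247200 to -1.06, while OsZS_10G0241100 goes from -0.029 to -0.061.

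The genes that supply or use the substrates of these enzymes were counted in 4 lists, taken by enzyme name from the annotation. Of 87 tested genes in these lists, 2 were called, beside 0.642% of all tested genes. Both of them are on the study's list of differing genes, so their direction here is not independent of it. Without NIL-D replicate 3, 9 of the 87 were called (2 higher and 7 lower in NIL-D), beside 2.84% of all tested genes (1.11% higher and 1.73% lower), and leaving out any other sample gave 0.

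In the list of aspartate and asparagine use (28 genes, 21 tested), 1 gene was called higher and none lower. Here 8 log2 fold changes were above 0 and the median was -0.040, beside 30.1% and -0.15 for all tested genes. The called gene, OsZS_09G0196800, has a bifunctional aspartokinase and homoserine dehydrogenase as its Swiss-Prot hit. This enzyme starts the aspartate family pathway toward lysine, threonine and methionine. The called gene had 3.69, 4.58 and 2.83 TPM in NIL-D and 0.18, 0.37 and 0.11 TPM in NIL-X. Every NIL-D sample was far above every NIL-X sample, and the difference on the log2 scale was 1.94 (SE 0.21, 95% interval 1.42 to 2.45, limma adjusted p = 0.0181). OsZS_08G0253400, OsZS_11G0025700, OsZS_12G0023400 and OsZS_09G0111300 have Swiss-Prot hits of the same enzyme name, were more abundant and were not called. Their means were 74.7, 77.0, 34.5 and 13.75 TPM in NIL-D and 62.7, 62.6, 31.4 and 15.0 TPM in NIL-X. Their log2 fold changes were 0.205, 0.235, 0.103 and -0.214.

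The 2 most abundant genes of that list had overlapping values. Argininosuccinate synthase OsZS_12G0110500, which spends aspartate in arginine synthesis, had 162.6, 155.5 and 98.8 TPM in NIL-D and 110.3, 106.4 and 122.6 TPM in NIL-X (log2 fold change 0.26, limma adjusted p = 0.566). Asparagine synthetase OsZS_06G0144500 had 106.1, 93.4 and 51.4 TPM in NIL-D and 96.0, 90.9 and 97.1 TPM in NIL-X (log2 fold change -0.24, limma adjusted p = 0.683). In both, NIL-D replicate 3 was the lowest of the 6 samples.

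In the list of oxaloacetate and pyruvate supply (34 genes, 30 tested), 1 gene was called lower and none higher. The median was -0.008 and 15 genes were above 0, beside -0.15 and 30.1% for all tested genes. The called gene, OsZS_01G0527400, is a phosphoenolpyruvate carboxylase, which makes oxaloacetate. It had 1.83, 3.06 and 1.89 TPM in NIL-D and 9.60, 9.12 and 7.20 TPM in NIL-X, without overlap (log2 fold change -1.58, SE 0.21, limma adjusted p = 0.0356). The other tested genes with Swiss-Prot hits of this enzyme were not called. OsZS_02G0143800 and OsZS_01G0097800 were more abundant, with means of 44.05 and 15.7 TPM in NIL-D and 50.9 and 23.8 TPM in NIL-X. Their log2 fold changes were -0.205 and -0.678. Those of OsZS_09G0130300, OsZS_08G0289700 and OsZS_01G0010800 were -1.227, -1.574 and 0.555. The most abundant gene, cytoplasmic malate dehydrogenase OsZS_10G0317400, which works with aspartate aminotransferase in the malate-aspartate exchange, had 870.6, 786.0 and 399.7 TPM in NIL-D and 567.1, 546.4 and 683.3 TPM in NIL-X (log2 fold change 0.12, limma adjusted p = 0.870). NIL-D replicates 1 and 2 were the highest and replicate 3 the lowest of the 6 samples, as for the plastid aspartate aminotransferase. The NADP-malic enzyme OsZS_01G0512700, which makes pyruvate, had 478.1, 521.5 and 687.2 TPM in NIL-D and 677.3, 679.2 and 654.2 TPM in NIL-X (log2 fold change -0.27, limma adjusted p = 0.493), with NIL-D replicate 3 the highest.

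In the list of glutamate supply (13 genes, 11 tested; glutamine synthetase, glutamate synthase and glutamate dehydrogenase), none was called and 3 had an unadjusted limma p below 0.05. Of the 11 log2 fold changes 1 was above 0, and the median was -0.30. Values of the lines did not overlap for 5 of the 11 genes. Over all tested genes, 24.3% did not overlap, 15.6% had such a p, 30.1% were above 0 and the median was -0.15. The 2 most abundant were cytosolic glutamine synthetases. OsZS_02G0533600 had 77.2, 74.3 and 133.4 TPM in NIL-D and 111.6, 99.0 and 94.2 TPM in NIL-X (log2 fold change -0.15, limma adjusted p = 0.791). OsZS_03G0496700 had 43.9, 52.5 and 76.6 TPM in NIL-D and 67.0, 45.6 and 108.8 TPM in NIL-X (log2 fold change -0.30, limma adjusted p = 0.695). The lines overlapped for both, and NIL-D replicate 3 was the highest NIL-D sample.

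Among the other aminotransferases (28 genes, 25 tested), none was called, 5 had an unadjusted limma p below 0.05, 11 were above 0 and the median was -0.13, beside 15.6%, 30.1% and -0.15 over all tested genes. Phosphoserine aminotransferase OsZS_03G0050100, of the serine pathway, had 232.7, 149.5 and 197.3 TPM in NIL-D and 110.3, 123.7 and 192.5 TPM in NIL-X (log2 fold change 0.46, limma adjusted p = 0.428). The probable gamma-aminobutyrate transaminase OsZS_04G0485800, which passes the amino group of GABA on, had 66.9, 97.3 and 201.9 TPM in NIL-D and 135.0, 120.4 and 107.0 TPM in NIL-X (log2 fold change -0.13, limma adjusted p = 0.889). Its highest sample was NIL-D replicate 3 and its lowest NIL-D replicate 1, so the lines overlapped.

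**Figure D4:**
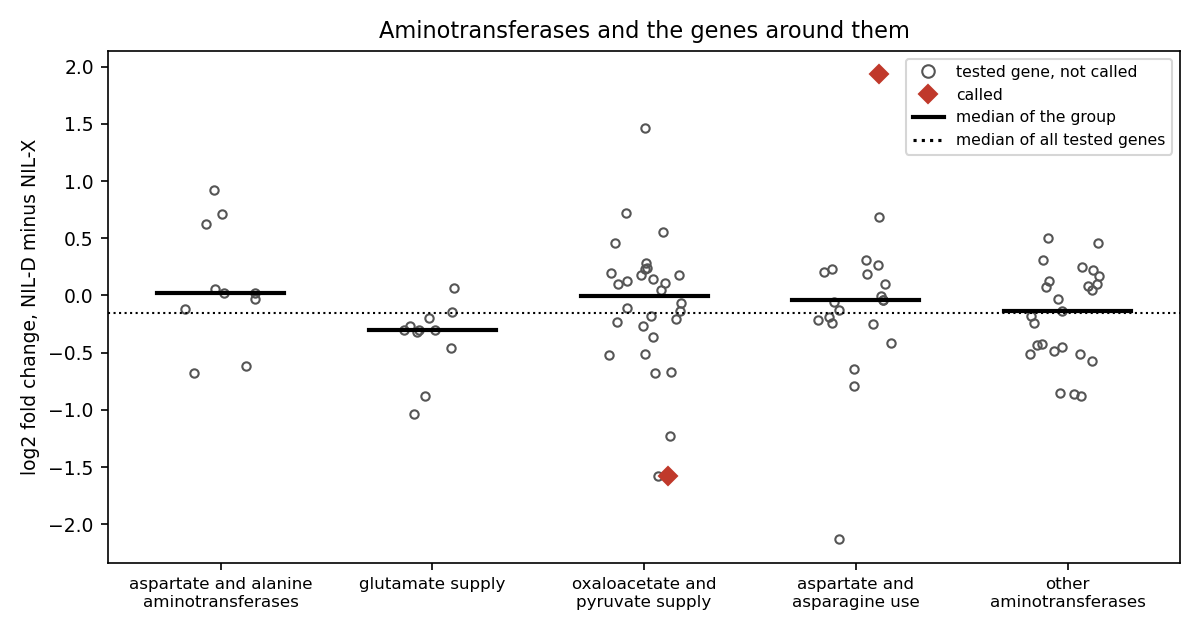
Log2 fold change, NIL-D minus NIL-X, of each tested gene of the aspartate and alanine aminotransferases and of the 4 lists around them, with the median of each group as a bar, the median of all tested genes (-0.15) as a dotted line and called genes as red diamonds. The 2 diamonds are OsZS_09G0196800 at 1.94 and OsZS_01G0527400 at -1.58, and none of the 10 aminotransferases is called.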

How the data were processed

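Per the paper's methods, reads were cleaned by the authors (SeqPrep, Sickle), mapped to the ZS97RS3 genome with TopHat, assembled with Cufflinks and quantified with RSEM. They deposited TPM per sample and the mean TPM of each line. The submitters' processing notes name Bowtie 0.12.2 and a mouse build, which the rice gene names go against. The depth per sample is unknown from TPM, so no counting interval was computed. Samples were grouped by the labelled strain. No other columns of per-sample values were present.

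The R package limma 3.58.1 (R 4.3.3; lmFit, then eBayes with trend) was run on log2(TPM + 1) of all genes reaching a mean of 0.5 TPM, since the count test that the paper names takes counts. The same steps were tested on simulated data, in which a gene had the same spread in every sample and no sample stood apart. That test does not cover a sample like NIL-D replicate 3. Descriptions and figures used Python 3.11.15, pandas 2.3.3, numpy 2.4.6 and matplotlib 3.10.9. Alternatives were a pseudocount of 0.1, no filter, a mean of at least 5 TPM, median-ratio rescaling, quantile normalization, no trend, a block for the replicate number, a call by adjusted p alone and leaving out each sample. The methods describe the samples of a line as biological replicates from separate field plots, with both lines planted in each plot.

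The genes and lists were chosen with earlier results of these data known, and the search words of the lists were amended after values had been seen, to take in cytosolic glutamine synthetases and to drop unrelated names. Every aminotransferase of at least 0.5 TPM was named, with those below it that were above 0 in every sample of a line. Of each list, the called genes and the 2 of highest mean were named. For OsZS_09G0196800 and OsZS_01G0527400 the tested genes of the same enzyme name were named too. Of the 12 genes, 7 matched a RefSeq gene of a japonica assembly through their protein hits, and no coordinates were taken from it. Sequences were not used here.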

Additional observations from a re-analysis of the deposited data

How the results depend on the processing

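No aminotransferase gene was called in any alternative except without NIL-D replicate 3, so leaving out single samples gave 0 to 2. The 138 calls among all genes (57 higher, 81 lower) became 57 with a mean of at least 5 TPM, 43 with the replicate block and 37 to 611 when single samples were left out. The split was 75 higher to 62 lower after median-ratio rescaling and 72 to 54 after quantile normalization. The 2 calls in the lists became 1 with no filter, 0 with a mean of at least 5 TPM and 0 with the replicate block. They became 3 after median-ratio rescaling, 3 after quantile normalization and 0 to 9 when single samples were left out. No source ties a replicate number to a field plot, so the replicate block was kept as an alternative only, and with it 0 aminotransferases were called. Same-numbered samples correlated in their deviations from the line means at 0.0164, 0.202 and 0.199. With so few samples per line these values cannot decide whether same-numbered samples shared a plot. Of the 10 genes, 5 had the same sign of the log2 fold change in all 13 alternatives and 5 did not. Among these alternatives, the filters, the fit without trend and the replicate block leave the log2 fold change unchanged. Only the pseudocount, the rescalings and leaving out samples could turn a sign. The sign turned for OsZS_10G0241100 with median-ratio rescaling (0.14) and single samples left out (-0.129 to 0.087). It turned for OsZS_02G0588100 with quantile normalization (-0.003) and single samples left out (-0.25 to 0.44), for OsZS_07G0426000 (-0.15 to 0.42) and OsZS_01G0071700 (-0.082 to 0.117) with single samples left out, and for OsZS_01G0624300 with median-ratio rescaling (0.039), quantile normalization (0.043) and single samples left out (-0.206 to 0.014). The cause was not tested.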
